A study of Mus musculus with 6 samples.

Results

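Integrins are the receptors with which macrophages hold on to other cells, to matrix and to opsonised targets, and transcripts of 10 integrin chains are described here in mouse bone marrow-derived macrophages with and without Ube3a. The 10 members were chosen by gene symbol from the 16836 genes of the deposited table, as chains known in macrophages. No measured value was a criterion, though earlier results of these data were known. All 10 were found: Itgam, Itgax, Itgal, Itga4, Itga6, Itgav, Itgb1, Itgb2, Itgb3 and Itgb5. RNA sequencing covered 3 libraries from Ube3a knockout macrophages (KO, labelled Ube3a-/-) and 3 from macrophages of wild-type littermates (WT). Bone marrow-derived macrophages are grown out from marrow precursors in culture. The labels name no other treatment, and they give neither the knockout allele, nor the sex or age of the mice, nor the number of mice behind the libraries. The p-values therefore describe variation among these 6 libraries, and part of it may be technical.

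An integrin is a dimer of 1 alpha and 1 beta chain, and neither chain reaches the cell surface without a partner. The beta-2 chain, encoded by Itgb2, is restricted to leukocytes and pairs with the alpha chains of Itgal (giving LFA-1), Itgam (Mac-1, or complement receptor 3) and Itgax (complement receptor 4). The beta-1 chain of Itgb1 pairs with many alpha chains, among them those of Itga4 (VLA-4, a receptor for VCAM-1 and fibronectin) and Itga6 (a laminin receptor). The alpha-v chain of Itgav pairs with the beta-3 chain of Itgb3 and the beta-5 chain of Itgb5 to bind RGD-bearing ligands such as vitronectin and osteopontin. Integrins wait in a bent, inactive form until talin and kindlin bind the beta tail, and they signal through Src family and Syk kinases once ligand is bound.

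Levels are given in CPM, reads scaled to the authors' library sizes, for replicates 1 to 3 in turn. Libraries held 25454862 to 35517269 reads over the genes listed, and a single read equalled 0.0277 to 0.0400 CPM. A gene was tested if 3 or more libraries reached 1 CPM, which held for 12118 genes and all 10 members. The test was limma on log2(CPM + 1), two-sided, and the threshold a p under 0.05 after Benjamini-Hochberg adjustment over the 12118. Ube3a stood at 69.7, 61.2 and 77.0 CPM in KO and at 207.1, 193.7 and 177.6 CPM in WT, and fell past the threshold (limma adjusted p = 0.0044); antisense transcripts overlap its exons, and reads of the opposite strand may be among these. All 8 macrophage markers looked for were present, at a summed 14200 to 16800 CPM in KO and 14900 to 16100 CPM in WT. Most of that sum was Lyz2, at 8859 to 11220 CPM, so it says little about the other markers. Taken singly, 6 of the 8 had a positive and 2 a negative log2 fold change, and none passed the threshold. Of the markers of other cells, the neutrophil list (8 of 10 genes in the table) summed to 26.2 to 33.4 CPM in KO and 29.1 to 33.6 CPM in WT, mostly Csf3r, the dendritic cell list to 0.48 to 0.578 CPM in KO and 0.141 to 0.448 CPM in WT, and the platelet list was nearly all Pf4, which macrophages also make. Xist, the transcript that silences an X chromosome, was nearly missing from the second replicate of either genotype (0.9 CPM in KO, 0.495 CPM in WT), while the other 4 libraries held 1087 to 1329 CPM. In bulk RNA, fewer cells of a type and less RNA per cell cannot be told apart.

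No integrin chain of the 10 differed between KO and WT macrophages by more than the spread between libraries allowed to be called. The 10 adjusted p-values ran from 0.866 to 0.995, where 0.0165% of all tested genes were called (limma, Benjamini-Hochberg). No member had an unadjusted p under 0.05 either, by limma (4.13% of all tested genes) or by limma-voom on the recovered reads (4.20%). In every member the ranges of the KO and WT values overlapped, whereas 9.95% of tested genes had ranges apart. The log2 fold change was positive for 4 members and negative for 6, with a median of −0.039, beside 0.0015 over all tested genes. With all 6 libraries, the 95% interval on the log2(CPM + 1) scale excluded a change of 1.5-fold in either direction for 7 of the 10. These were Itgb2, Itgam, Itgal, Itgb1, Itga4, Itgav and Itgb5. The intervals of Itgax, Itga6 and Itgb3 were wider and leave larger differences possible. The bound is not kept in every fit. Without WT replicate 2 the log2 fold change was −0.39 ± 0.096 (SE) for Itgav and −0.33 ± 0.12 (SE) for Itgal, and 1.5-fold is not excluded there.

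**Figure D1:**
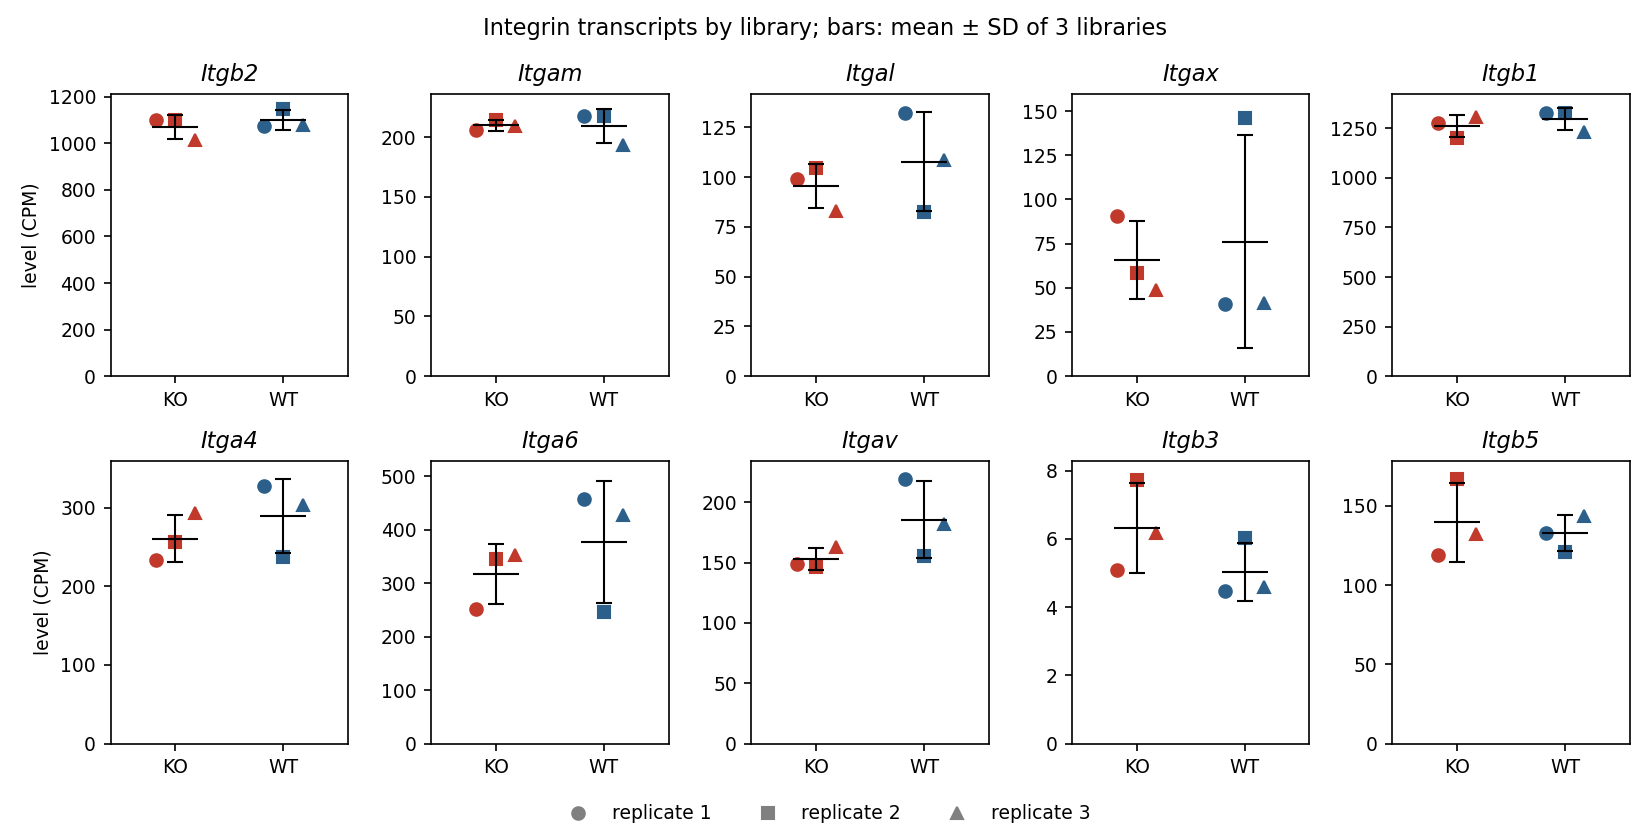
Level of each of the 10 integrin transcripts in CPM (vertical axes, from 0), with KO libraries in red to the left of WT libraries in blue and a marker shape per replicate number; horizontal bars are means and whiskers SDs of 3 libraries. The genotypes overlap in every panel, and WT replicate 2 (square) stands apart for Itgax, at 145.8 CPM.

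Of the leukocyte beta-2 integrin chains, Itgb2 and Itgam were steady over the 6 libraries (1.14-fold and 1.13-fold from lowest to highest), Itgal less so (1.61-fold) and Itgax least. Itgb2 (chromosome 10: 77530252 to 77565708, plus strand, GRCm38), the shared beta chain, stood at 1100, 1098 and 1012 CPM in KO and at 1074, 1149 and 1077 CPM in WT. The log2 fold change was −0.04 ± 0.08 (SE, n = 3 per genotype), with a 95% interval of −0.22 to 0.14, and KO replicate 3 was the lowest of 6 closely spaced libraries. Itgam (chromosome 7: 128062640 to 128118491, plus strand), the CD11b chain that serves as a standard marker of myeloid cells, stood at 205.7, 214.7 and 209.4 CPM in KO and at 217.5, 218.2 and 193.3 CPM in WT. It had the log2 fold change nearest to 0 of the 10, at 0.0037 ± 0.07 (SE; 95% interval −0.15 to 0.16), and all 3 KO values lay inside the WT range. Itgal (chromosome 7: 127296260 to 127335138, plus strand), the LFA-1 alpha chain that binds ICAM-1, stood at 99.3, 104.4 and 83.2 CPM in KO and at 132.3, 82.3 and 108.7 CPM in WT. Its means were 95.6 ± 11.1 CPM in KO and 107.8 ± 25.0 CPM in WT (SD, n = 3 each), a log2 fold change of −0.15 (95% interval −0.53 to 0.23), and WT replicate 2 was the lowest of the 6 libraries.

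Itgax (chromosome 7: 128129547 to 128150657, plus strand), the CD11c chain best known from dendritic cells and also made by tissue macrophages, varied more between libraries than any other member. It stood at 90.5, 58.5 and 48.6 CPM in KO and at 40.9, 145.8 and 41.6 CPM in WT, 3.57-fold from lowest to highest. The highest and the lowest libraries were both WT, with all 3 KO libraries between them. The log2 fold change was 0.015 with a 95% interval of −1.07 to 1.09 (limma adjusted p = 0.995), so that the comparison bounds Itgax only loosely. Without WT replicate 2 the log2 fold change was 0.61 (limma adjusted p = 0.424), and without WT replicate 1 it was −0.29. The SD of its log2(CPM + 1) values was 0.455 within KO and 1.04 within WT, where the median gene had 0.111 and 0.103.

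Itgam, Itgax and Itgad, which encodes another alpha partner of beta-2, stand side by side on chromosome 7, with 11.1 kb between Itgam and Itgax and 3.72 kb between Itgax and Itgad. Itgal, Itgam and Itgax lie 68.0 to 68.8 Mb from Ube3a on the same chromosome. The bases before the starts of Itgam and Itgax are shown because the neighbours differed so much in their spread over the libraries. Each run is the 250 bases before the RefSeq start on the plus strand (GRCm38.p6), 5′ to 3′: chr7:128062390-128062639 for Itgam and chr7:128129300-128129549 for Itgax. Capitals mark GAGGAA, a core of sites for the myeloid factor PU.1, and TGANTCA, the AP-1 site, on either strand.
Itgam: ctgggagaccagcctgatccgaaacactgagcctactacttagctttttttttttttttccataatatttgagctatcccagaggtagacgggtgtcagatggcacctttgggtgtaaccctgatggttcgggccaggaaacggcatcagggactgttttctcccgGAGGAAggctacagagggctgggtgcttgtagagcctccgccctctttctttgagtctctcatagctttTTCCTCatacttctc
Itgax: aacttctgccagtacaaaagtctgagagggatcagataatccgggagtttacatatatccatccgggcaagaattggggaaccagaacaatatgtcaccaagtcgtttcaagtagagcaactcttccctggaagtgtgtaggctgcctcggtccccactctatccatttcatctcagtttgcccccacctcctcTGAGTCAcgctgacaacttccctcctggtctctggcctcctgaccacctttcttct

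The Itgam window held GAGGAA at 2 places, the nearer of them separated from the start by 9 bases, and no AP-1 match. The Itgax window held 1 AP-1 match and no GAGGAA. Among all 32851 promoter windows of the same length, 23.3% held GAGGAA and 6.75% held TGANTCA on either strand, and the matches do not overlap. The Sp1-type GGGCGG was in the Itgam window and in 32.7% of all windows. Windows of 6 members (Itgam, Itgax, Itga4, Itgav, Itgb1 and Itgb5) were matched. GAGGAA was in 3 of these 6, GGGCGG in 4 and TGANTCA in 1, while TGACGTCA (1.55% of all windows) and TATAAA (12.4%) were in none. A match is a run of letters and not a bound site.

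Of the beta-1 chains, Itgb1 was as steady as Itgb2, and the alpha chains varied between libraries of one genotype. Itgb1 (chromosome 8: 128685654 to 128733200, plus strand) stood at 1276, 1201 and 1307 CPM in KO and at 1327, 1327 and 1231 CPM in WT. The log2 fold change was −0.04 ± 0.08 (SE, n = 3 per genotype), with a 95% interval of −0.22 to 0.14. Itga4 (chromosome 2: 79255426 to 79333123, plus strand), the VLA-4 alpha chain used by leukocytes to stop on endothelium, stood at 233.4, 255.8 and 292.6 CPM in KO and at 328.0, 236.7 and 303.8 CPM in WT. WT replicates 1 and 3 lay above all KO libraries and WT replicate 2 did not, with a log2 fold change of −0.14 (95% interval −0.45 to 0.16). Itga6 (chromosome 2: 71745616 to 71858416, plus strand), a laminin-binding alpha chain, stood at 251.8, 345.3 and 352.6 CPM in KO and at 457.1, 246.9 and 427.1 CPM in WT. It had the same arrangement, with WT replicates 1 and 3 highest and WT replicate 2 lowest of all 6, and a log2 fold change of −0.22 (95% interval −0.76 to 0.32). Without WT replicate 2 its log2 fold change was −0.50 (limma adjusted p = 0.311), and without WT replicate 1 it was −0.053.

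Itgav and Itgb3, which encode an alpha-v beta-3 pair, had the smallest unadjusted p-values of the 10, with fold changes of opposite sign, while Itgb5 showed little difference. Itgav (chromosome 2: 83724397 to 83806916, plus strand), which also serves in the uptake of apoptotic cells, stood at 149.0, 146.3 and 163.2 CPM in KO and at 219.2, 155.4 and 182.0 CPM in WT. Only WT replicate 2 fell within the KO range, and the KO mean of 152.9 ± 9.07 CPM was 82.4% of the WT mean of 185.5 ± 32.1 CPM (SD, n = 3 each). The log2 fold change was −0.27 ± 0.12 (SE; 95% interval −0.54 to 0.0092), with an unadjusted limma p of 0.056 and an adjusted limma p of 0.866. In the authors' deposited table Itgav had an unadjusted p of 0.0488, with a log2 fold change of −0.27. Itgb3 (chromosome 11: 104608000 to 104670476, plus strand), the beta-3 chain prominent in platelets and osteoclasts, was the rarest member. It stood at 5.08, 7.71 and 6.17 CPM in KO and at 4.48, 6.01 and 4.60 CPM in WT, on 127 to 240 reads in a KO library and 140 to 170 reads in a WT library. KO replicate 1 lay inside the WT range and the other KO values above it, with a log2 fold change of 0.27 (95% interval −0.10 to 0.64; limma adjusted p = 0.866). Itgb5 (chromosome 16: 33829665 to 33949338, plus strand), the other beta partner, stood at 119.3, 167.2 and 132.4 CPM in KO and at 132.9, 121.1 and 143.9 CPM in WT, a log2 fold change of 0.06 (95% interval −0.22 to 0.35). Its highest and lowest libraries were both KO.

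**Figure D2:**
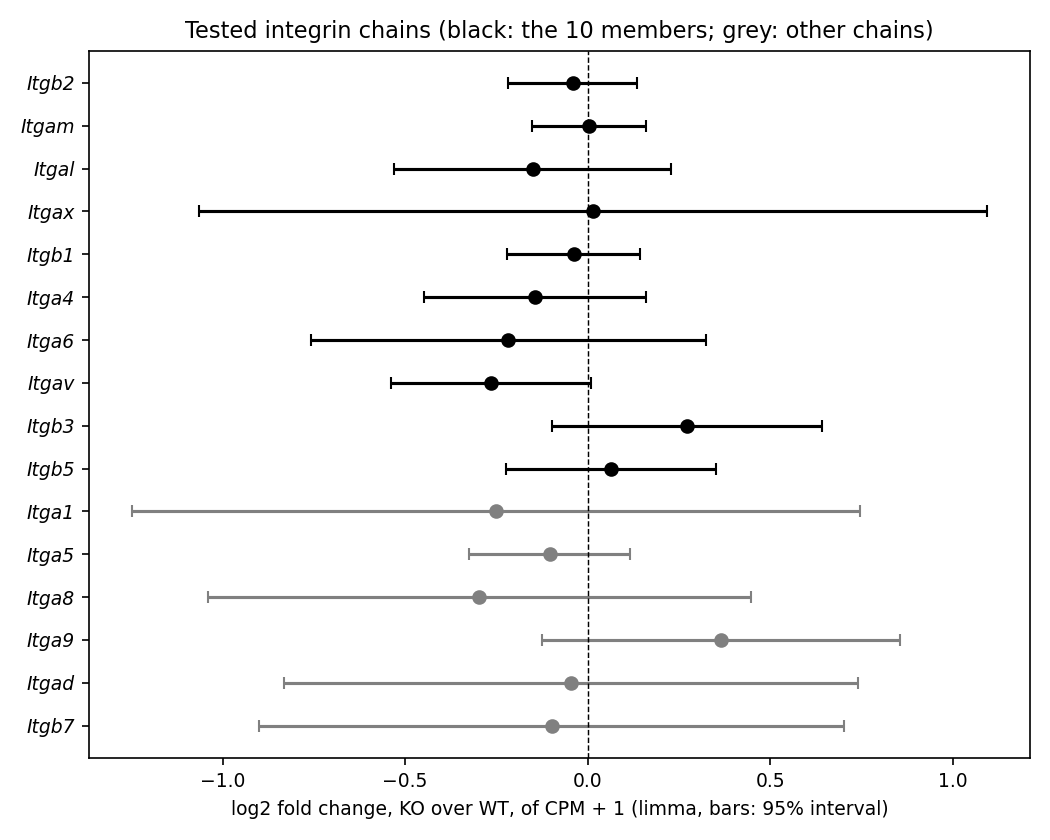
Log2 fold change of CPM + 1, KO over WT (horizontal axis), with 95% intervals from limma, for the 10 members (black) and the other 6 tested integrin chains (grey). Every interval includes 0, Itgav reaches least past it (−0.54 to 0.0092), and Itgax has the widest interval of the members.

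The exon models set limits on 3 of these levels. All but 1574 of the 5024 exon bases of Itgam are shared, on the same strand, with a readthrough gene model, Gm49368 (3450 bases). Itga4 shares 1124 exon bases with Cerkl, and Itgav 634 with Gm13684, both on the opposite strand. These lengths are those of GENCODE M21 on GRCm38. Which annotation and strand setting the authors counted with is not stated in the labels, and reads in shared bases may have been left out or assigned to either gene.

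Ranked by level per length, the beta-2 and beta-1 chains stood far above every alpha chain. On the scale of CPM per kilobase of annotated exon, Itgb2 came first at 350.6 ± 16.5 in KO and 360.4 ± 13.9 in WT, and Itgb1 next at 309.1 ± 13.4 in KO and 317.3 ± 13.6 in WT (SD, n = 3 each). In each of the 6 libraries Itgb2 was above Itgb1, and Itgb1 above the other 8. Itgam (41.8 in KO, 41.7 in WT), Itga6 (35.1 in KO, 41.8 in WT) and Itgb5 (39.3 in KO, 37.3 in WT) followed as a set whose libraries overlapped, so their order is not resolved. Below them Itga4 (18.6 in KO, 20.7 in WT), Itgav (14.2 in KO, 17.3 in WT), Itgal (14.6 in KO, 16.4 in WT) and Itgax (13.7 in KO, 15.8 in WT) also overlapped, from neighbour to neighbour. Itgb3 was last, at 1.07 ± 0.22 in KO and 0.853 ± 0.14 in WT, with no overlap with Itgax above it. On these lengths the leukocyte chains (Itgb2, Itgam, Itga4, Itgal and Itgax) and the matrix chains (Itgb1, Itga6, Itgb5, Itgav and Itgb3) were interleaved in the ranking. The first place depends on the length used: per kilobase of coding sequence Itgb1 stood at 533.9 and Itgb2 at 469.7 as means of all 6 libraries, and Itga6 moved to the third place. With the whole CPM of each gene divided by the exon length that no other gene model shares, Itgam stood at 133.3 and kept the third place. That value takes it that no read in the shared bases was counted, which is not known.

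**Figure D3:**
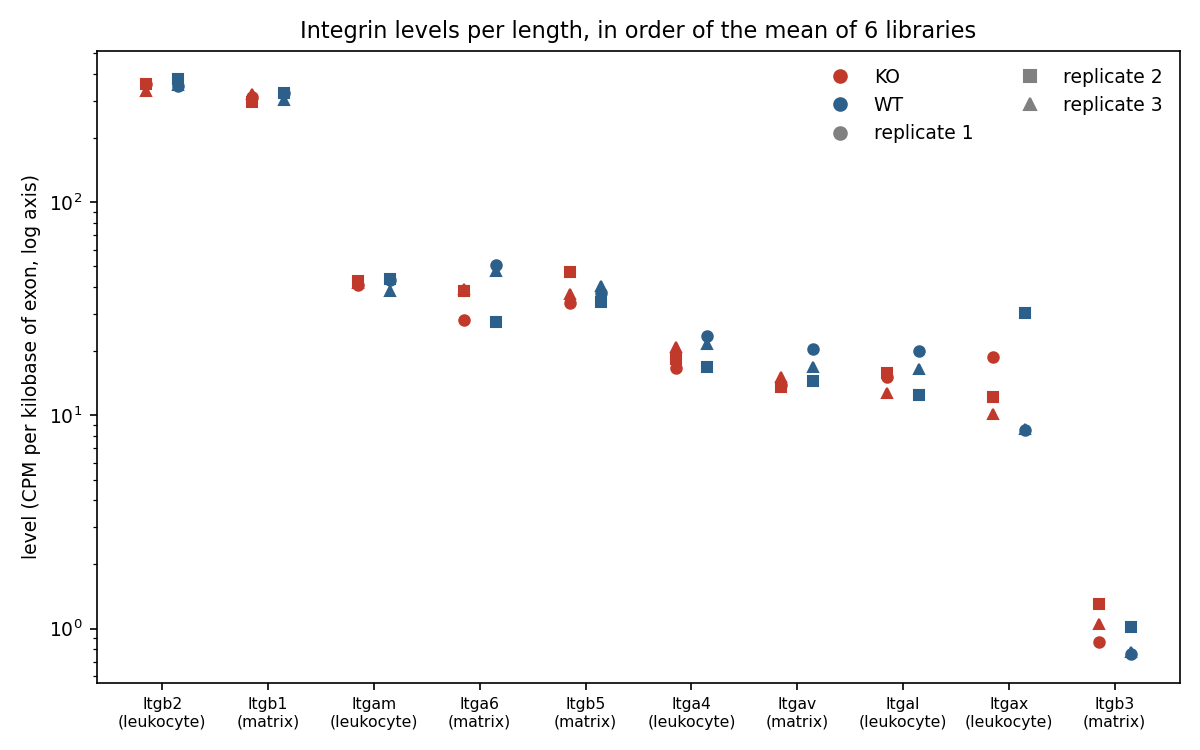
CPM per kilobase of annotated exon (vertical log axis) of each integrin chain in every library, KO in red left of WT in blue, with a marker shape per replicate number, in order of the mean of all 6 libraries. Itgb2 and Itgb1 lie at 294.3 or above in every library, the next 7 chains between 8.51 and 50.65, and Itgb3 near 1.

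The balance between chains that share a partner overlapped between genotypes for the beta-2 and beta-1 integrins and did not for alpha-v. Per kilobase of annotated exon, Itgal, Itgam and Itgax together made up 0.20 ± 0.0072 of the Itgb2 level in KO and 0.205 ± 0.024 in WT (SD, n = 3 each). Itga4, Itga6 and Itgav together made up 0.22 ± 0.029 of the Itgb1 level in KO and 0.252 ± 0.062 in WT. This is not the whole of the alpha chains beside Itgb1. Itga5, the alpha chain of the classical fibronectin receptor, is outside the 10 and left out, at a mean of 255.8 CPM in KO and 273.8 CPM in WT. The size of these shares depends on the length used: per kilobase of coding sequence the beta-1 share was 0.436 in KO and 0.497 in WT. With the whole CPM divided by unshared exon length, the beta-2 share was 0.461 in KO and 0.459 in WT. This again takes it that no read in shared bases was counted. The level of Itgav over that of Itgb3 and Itgb5 together was 0.403, 0.282 and 0.397 in KO libraries, with 0.535, 0.412 and 0.410 in WT libraries. All KO values lay under all WT values, by a narrow margin between KO replicate 1 and WT replicate 3, and this difference was not tested. It is 1 of 3 balances looked at, and 9.95% of all tested genes had ranges apart in CPM. The same held on each of the 4 lengths tried, which is no separate check. Itgb5 makes up nearly all of the denominator, so another length rescales every library nearly alike. The log2 ratio of Itgb3 to Itgb5 in CPM was −4.55, −4.44 and −4.42 in KO and −4.89, −4.33 and −4.97 in WT. KO was higher by 0.257, with WT replicate 2 above every KO library (two-sided exact permutation test, p = 0.4, and 1 after adjustment over 3 ratios). The log2 ratio of Itgax to Itgam was −1.18, −1.88 and −2.11 in KO and −2.41, −0.582 and −2.22 in WT (exact permutation p = 1). That of Itga6 to Itga4 was 0.109, 0.433 and 0.269 in KO and 0.479, 0.0609 and 0.491 in WT (exact permutation p = 0.7). The smallest p that 3 against 3 libraries can give is 0.1. The 10 members together held 3530, 3599 and 3607 CPM in KO and 3933, 3688 and 3713 CPM in WT, sums that are mostly Itgb1 and Itgb2 and were not tested.

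Relative to their own means, some integrin chains had opposite arrangements over the libraries that crossed the genotypes. On the log2(CPM + 1) scale, Itga6 was low in KO replicate 1 (−0.42) and WT replicate 2 (−0.45), and high in WT replicates 1 (0.44) and 3 (0.34). Itga4 was also lowest in KO replicate 1 (−0.22) and WT replicate 2 (−0.20). Itgax was highest in WT replicate 2 (1.19) and KO replicate 1 (0.51), and lowest in WT replicates 1 (−0.62) and 3 (−0.59). Itgal followed this only in part: it was lowest in WT replicate 2 (−0.28) and KO replicate 3 (−0.27), and near its mean in KO replicate 1 (−0.016). Itgb2, Itgb1 and Itgam stayed close to their means, the farthest value being −0.116 for Itgam in WT replicate 3. The summed level of the 7 neutrophil markers in the table other than Csf3r, of which S100a9 and S100a8 were the highest by mean, was also lowest in KO replicate 1 and WT replicate 2. It was 2.76, 8.51 and 10.5 CPM in KO and 15.4, 4.81 and 16.6 CPM in WT. Csf3r ran otherwise, at 23.4, 24.9 and 20.1 CPM in KO and 13.8, 25.3 and 17.0 CPM in WT. With Csf3r the sum was 30.1 CPM in WT replicate 2 and 29.1 CPM in WT replicate 1. Ngp stood at 0.2, 1.67 and 1.51 CPM in KO and at 3.20, 0.495 and 3.72 CPM in WT, and Elane and Camp had no read in KO replicate 1 or WT replicate 2. The part of such cells in the Itga6 and Itga4 values was not tested. With WT replicate 2 left out, 6 of the 10 members had an unadjusted limma p under 0.05, where 10.6% of all tested genes did, and the lowest limma adjusted p of a member was 0.278. These 6 were Itgav (log2 fold change −0.39), Itga6 (−0.50), Itgal (−0.33) and Itga4 (−0.28) on the lower side in KO, and Itgax (0.61) and Itgb3 (0.39) on the higher. No other left-out library gave such a count: it was 1 without KO replicate 1 (4.21% of tested genes), and 0 without KO replicate 2 (2.16%), KO replicate 3 (5.46%), WT replicate 1 (1.23%) or WT replicate 3 (3.19%).

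**Figure D4:**
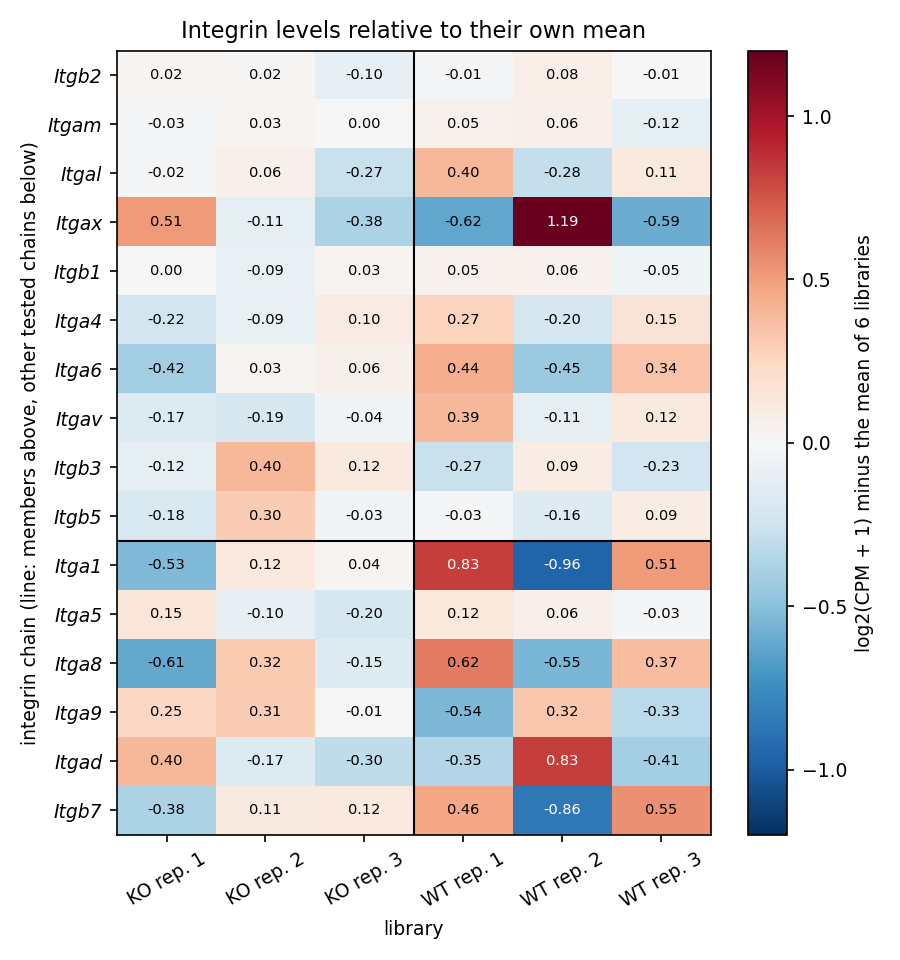
Log2(CPM + 1) of each tested integrin chain (rows, members above the line) in each library (columns, KO left of WT) minus the mean of its 6 libraries, with red for higher and blue for lower. KO replicate 1 and WT replicate 2 share low Itga6 (−0.42 and −0.45) and high Itgax (0.51 and 1.19).

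For 7 of the 10 members the sign of the difference between genotypes was opposite in libraries with Xist and libraries almost without it, which was not tested. The share of all tested genes with such a change was not computed, so the count cannot be read as a trait of integrins. Among the 4 libraries with Xist, Itgax stood 0.673 higher in KO on the log2(CPM + 1) scale, and between the 2 libraries almost without it, 1 of each genotype, KO was lower by a difference of −1.30. For Itga6 these differences were −0.567 and 0.482, for Itgal −0.396 and 0.339, for Itgb5 −0.137 and 0.462, and for Itga4 −0.272 and 0.112. Itgam (0.0174 and −0.0232) and Itgb1 (0.0149 and −0.144) also changed sign, from values near 0. Itgav was lower in KO in both sets, at −0.355 and −0.0865, as was Itgb2, at −0.0276 and −0.0654, and Itgb3 higher in both, at 0.252 and 0.313. With 1 library of each genotype in the smaller set, the change of sign has no replicate check. Over the 4 libraries with Xist alone, the unadjusted limma p was under 0.05 for 5 members, of which 4 were lower and 1 higher in KO, against 11.4% of all tested genes, and the lowest limma adjusted p of a member was 0.138, for Itga6.

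**Figure D5:**
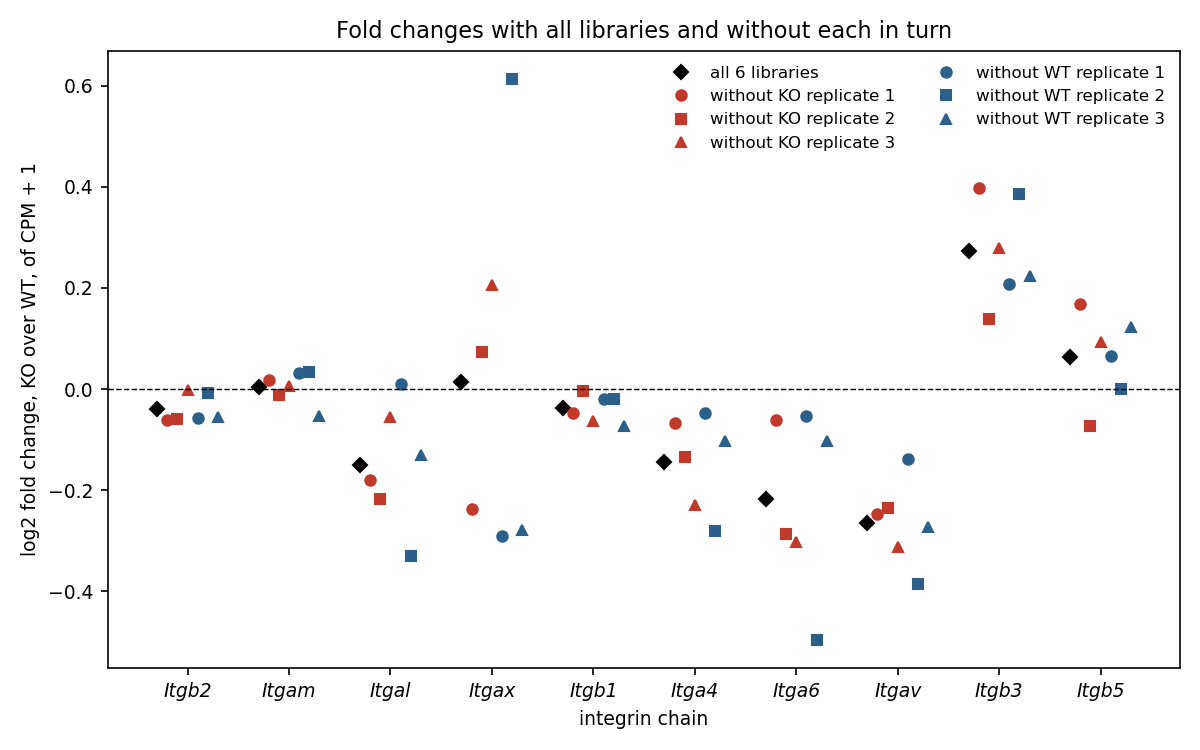
Log2 fold change of CPM + 1, KO over WT (vertical axis), for each member with all 6 libraries (black diamonds) and without each library in turn (red for a KO and blue for a WT library left out, shape by replicate number). Leaving out WT replicate 2 moves Itgax to 0.61 and Itga6 to −0.50, while Itgb2, Itgb1 and Itgam stay between −0.074 and 0.033.

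The 3 tested genes whose profile over the 6 libraries lay nearest to that of Itgax were C3, Itgad and Aif1. The measure was the root mean square gap between log2(CPM + 1) profiles, each centred on its own mean, over 12117 other genes. C3, the complement protein whose cleavage product iC3b is bound by the Itgam and Itgax integrins, had a gap of 0.171, and stood at 209.8, 92.8 and 103.6 CPM in KO and at 81.0, 283.7 and 89.3 CPM in WT. Itgad, the neighbouring alpha chain, had a gap of 0.206, with 3.32, 1.93 and 1.67 CPM in KO and 1.57, 4.85 and 1.47 CPM in WT. Aif1, which encodes the actin-binding protein IBA1 of macrophages and microglia, had a gap of 0.215, with 26.8, 19.8 and 17.3 CPM in KO and 10.9, 33.3 and 12.5 CPM in WT. All 3 shared the highest value in WT replicate 2 and the second in KO replicate 1 with Itgax. The osteoclast marker list, of which 4 of 7 genes were in the table with Mmp9 the highest, had its 2 highest sums in the same libraries. These were 42.3 CPM in KO replicate 1 and 63.5 CPM in WT replicate 2, with 16.5 to 28.9 CPM elsewhere. The sums followed Mmp9, at 29.8, 19.0 and 12.5 CPM in KO and 3.94, 46.9 and 8.98 CPM in WT. Dcstamp stood at 7.76, 7.29 and 7.58 CPM in KO and 9.35, 13.0 and 10.3 CPM in WT. All KO values of Dcstamp, that of KO replicate 1 among them, thus lay below all WT values (log2 fold change −0.46; limma adjusted p = 0.866). Of all tested genes, 9.95% had ranges apart. The part of the osteoclast list in the Itgax values was not tested. Of the defining genes of that list, Acp5 had at most 3.24 CPM and Ctsk at most 1.91 CPM in a library, and none of the 4 was at 0.

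Of the 16 other integrin chains of the mouse, 12 were in the table and 6 reached the filter, and none of the 6 was called. Itga5, the alpha chain of the classical fibronectin receptor, was the most abundant of them in CPM, at 292.0, 245.8 and 229.5 in KO and 287.4, 274.8 and 259.1 in WT (log2 fold change −0.10). Itgb7, which pairs with the Itga4 chain to bind MAdCAM-1, stood at 77.4, 108.8 and 109.3 CPM in KO and at 138.9, 55.0 and 147.5 CPM in WT. It was lowest in WT replicate 2 and KO replicate 1, as were Itga1, a collagen receptor chain, and Itga4. Itga8 was lowest in KO replicate 1 (26.9 CPM) and WT replicate 2 (28.05 CPM), and highest in WT replicate 1 (64.6 CPM). Itga9 stood at 10.8, 11.2 and 8.85 CPM in KO and at 5.79, 11.4 and 6.90 CPM in WT (log2 fold change 0.37; 95% interval −0.12 to 0.85). The platelet alpha chain Itga2b, the other partner of Itgb3, had at most 0.224 CPM in a library, and Itga2, Itga3, Itga10, Itgae and Itgb4 also lay below the filter.

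None of the 76 tested genes in 7 lists of integrin regulators, effectors and ligands was called, and 2 of them (2.63%) had an unadjusted limma p under 0.05, beside 4.13% of all tested genes. The genotypes did not overlap for 4 of the 76 (5.26%), beside 9.95% of all tested genes. Among 10 tested activators, the median log2 fold change was 0.0072, and Rap1a, the small GTPase that recruits talin to integrins, stood at 70.8, 65.3 and 75.7 CPM in KO and 85.1, 79.3 and 79.0 CPM in WT. It was 1 of the 4 without overlap (log2 fold change −0.20; limma adjusted p = 0.866), while Fermt3, the kindlin of blood cells, had a log2 fold change of 0.09. Among 8 restrainers the median was 0.07, with Rasa3, which switches Rap1 off, at 0.14, and Itgb1bp1 (ICAP-1), which binds the beta-1 tail, at 0.13. Both are among the 4 without overlap, and neither passed the threshold. Among 16 downstream kinases and adaptors the median was −0.020. Fgr, a Src family kinase of myeloid cells, stood at 13.4, 22.2 and 15.5 CPM in KO and at 31.8, 19.4 and 28.7 CPM in WT (−0.62 as a log2 fold change; limma adjusted p = 0.866), and Fcer1g, an ITAM adaptor, had 0.19. WT replicate 2 was again the WT library nearest to KO for Fgr.

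Scaffold, ligand and membrane partner genes gave medians close to 0. Among 11 tested scaffold genes it was −0.014, with Lims1 (PINCH-1) at −0.19 and its partner Ilk, integrin-linked kinase, at 0.09. Among 11 tested ligands it was −0.011, with the junctional adhesion molecule F11r at 8.64, 11.95 and 13.0 CPM in KO and 24.0, 9.41 and 20.8 CPM in WT (fold change −0.57 on the log2 scale; limma adjusted p = 0.866), and Tgfb1, whose latent form is bound by alpha-v integrins, at 0.15. Among 11 lateral partners it was 0.05, with the urokinase receptor Plaur at −0.24 and the tetraspanin Cd37 at 0.21. Among 9 trafficking genes it was −0.014, with the endosomal GTPases Rab21 at −0.10 and Rab11a at −0.08.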

How the data were processed

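Messenger RNA of 3 KO and 3 WT libraries, grouped by title, was summarised by the authors in 1 table. The submitters' processing notes name FastQC 0.11.15, Cufflinks, HTSeq 0.11.0, HISAT2 2.1.0 and Trimmomatic 0.36 without roles. Build and annotation: not given in the sources used here. Deposited values are log2 CPM with a prior count, from their range, and lost the decimal mark wherever the size is 1 or more. Each library's zero offset and the CPM of 1 read fixed the mark and gave back whole reads (within 1e-06) for 100% of genes (tested on simulated data). Unadjusted p-values deposited by the authors could be read for 16830 genes. The design foresaw this unit, and count models were not used.

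CPM on the authors' scaled library sizes were filtered and tested in R 4.3.3 with limma 3.58.1, eBayes using a trend on mean level, and the step was tested on simulated data. Exact permutation tests used scipy 1.17.1. The neutrophil sum without Csf3r and the chain balances on other lengths were added after seeing the data. Alternatives were other pseudocounts, filters, scalings, limma-voom, further terms and left-out libraries. Members, lists and tests were chosen with earlier results of these data known. The text names the 10 members, Ube3a, Xist, tested integrin chains, the called genes of each list or else its 2 with the smallest p, and the 3 profiles nearest to the member with the widest range. Acp5, Ctsk, Dcstamp, Mmp9, Pf4, Csf3r, Ngp, Lyz2, S100a8, S100a9 and the untested chains fall outside this rule and were named after their values were seen. Exon lengths come from GENCODE M21 and promoter windows from RefSeq.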

Additional observations from a re-analysis of the deposited data

How the results depend on the processing

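No member passed the threshold under any of the 16 alternative fits, and Itga4, Itga6, Itgav, Itgb2 and Itgb3 kept their direction in all of them. The number of tested genes past it was 2, and was 1 with no filter on low values and with limma-voom, 24 without the 2 libraries with almost no Xist, and 1 to 8 without 1 library (8 without WT replicate 2, 1 without any other). With an Xist term, chosen after seeing the data, the lowest limma adjusted p of a member was 0.767. Members with an unadjusted limma p under 0.05 numbered 1 with no filter on low values (Itgav, beside 4.54% of tested genes). They numbered 2, Itgav and Itgb3, with the replicate number as a block (4.08%) and with the Xist term (6.07%). Both terms are balanced over the genotypes and cannot move a log2 fold change. The log2 fold change of Itgam was −0.0040 on plain read totals, and without the 2 libraries with almost no Xist that of Itgb1 was 0.015 and that of Itgb5 −0.14. Without 1 library, Itgal ran from −0.33 to 0.0091, Itgam from −0.054 to 0.033, Itgax from −0.29 to 0.61 and Itgb5 from −0.073 to 0.17. The KO minus WT difference in the log2 ratio ran from −0.324 to 0.591 for Itgax to Itgam, from −0.215 to 0.0073 for Itga6 to Itga4 and from 0.139 to 0.456 for Itgb3 to Itgb5. Why these values moved was not tested.

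Of the 45 pairs of members, the order per length turned round in 1 with the longest transcript, in 4 with coding length (chosen after seeing the data, as was unshared exon length, with 0), in 5 in KO replicate 1 alone, 3 in KO replicate 2, 1 in WT replicate 1, 5 in WT replicate 2 and 2 in WT replicate 3. Coding length from RefSeq proteins was not run. With the replicate number as a block, 2 tested genes and no member passed. The KO minus WT difference in the log2 ratio of Itgb3 to Itgb5 was again 0.257, which balanced blocks cannot change. Deviations of same-numbered libraries had correlations of −0.216, −0.134 and 0.14 over 12118 genes. These values cannot settle whether the numbers pair the samples, and Xist was nearly missing from replicate 2 of either genotype. KO replicate 1 correlated best with WT replicate 2, at 0.398. Libraries of 1 genotype differed beyond sampling noise (chi-square per degree of freedom 12.4 to 49.9). Depth limits Itgb3 most, at 127 to 240 reads per library.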
